A study of Arabidopsis thaliana with 72 samples.

Results

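The histone genes of Arabidopsis thaliana described here are 41 loci among the 22122 in the table, taken by their locus identifiers. They encode the core histones H2A, H2B, H3 and H4 and the linker histone H1. There are 5 H3.1 genes, 3 H3.3 genes, 8 H4 genes, 4 canonical H2A genes, 2 H2A.X genes, 3 H2A.W genes, 3 H2A.Z genes, 10 H2B genes and 3 H1 genes. Core histones form the octamer around which DNA is wrapped, and H1 binds where the DNA enters and leaves it. Replication-coupled histones are made mainly in S phase to package new DNA, so in a plant organ much of their RNA comes from dividing cells. Replacement variants are made throughout the cell cycle: H3.3 is put into transcribed chromatin and H2A.Z is exchanged at gene starts, while H2A.W marks heterochromatin and H2A.X takes part in DNA repair. H3.1, H4 and canonical H2A, 17 genes, are called replication-coupled below, and H3.3 and H2A.Z, 6 genes, are called replacement variants.

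RNA was sequenced from shoots and, separately, from roots of 14-day-old seedlings grown on agar with 1% sucrose under 16 h light and 8 h dark. Citral, a volatile terpenoid aldehyde of plant essential oils, was given at 202 µM and sampled after 1, 3, 6, 12 and 24 h. The controls received 0.1% ethanol, the solvent, and were sampled at 0 h and at the same 5 times, and further seedlings were left untreated and taken at 0 h. That makes 24 groups of 3 libraries, 12 groups for each organ. The series title, its design text and the agent labels name citral. A protocol field gives t-chalcone, 21 µM, as the treatment instead, so the agent is given here as the agent labels have it. No genotype or accession is given in the labels. Nothing in them says that the 3 libraries of a group came from separate plates or plants, so the p-values measure the spread between these libraries.

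Several properties of the libraries bear on all results. Depth was between 0.185 and 20.6 M (mega) reads on loci. The 30 citral libraries were shallower, with 1.58 to 3.59 M and a median of 3.43 M, against a median of 11.4 M in the 42 control libraries, so depth and treatment moved together. There were 4 control libraries under 0.5 M reads: ethanol roots at 0 h and 3 h (replicate 1 of each), ethanol shoots at 12 h (replicate 2) and ethanol shoots at 24 h (replicate 3). Replicate 2 of ethanol shoots at 12 h stood apart, since 73.9% of its loci had the lowest value, 1. In the others under 0.5 M reads this was 34.8 to 46.2%. Organ labels fitted the marker genes, since 4 photosynthesis genes summed to between 28800 and 35800 scaled CPM (reads of a gene per M reads on loci, scaled between libraries by a trimmed mean of log ratios) in shoots and to between 56.4 and 111 in roots at 0 h. Treatment began 7 h after lights on, which puts 24 h at the same hour of the day as 0 h. The morning clock gene LHY went against those labels in ethanol shoots, with means of 18.7 scaled CPM at 0 h, 3.01 at 1 h, 38.8 at 3 h, 1.86 at 6 h, 786 at 12 h and 459 at 24 h. Over 13 clock genes, the ethanol shoots at 24 h lay 0.62 from those at 12 h and 2.52 from those at 0 h, as root mean square log2 distance, and in roots these distances were 0.55 and 1.78. The citral shoots at 24 h lay 2.38 from the ethanol shoots at 24 h, 1.05 from those at 0 h and 0.54 from those at 3 h. Citral libraries had the ethanol group of their own time as nearest only at 1 h and 6 h, in both organs. At 3 h they were nearest to ethanol at 1 h, and at 12 and 24 h to ethanol at 3 h. Hour of the day and treatment therefore cannot be told apart at 3, 12 and 24 h. For 12 and 24 h the citral values are also given against ethanol at 0 h, and citral values are set beside the range of all 16 ethanol libraries of an organ with at least 0.5 M reads. No test set citral at 12 or 24 h against ethanol at 3 h, the nearest group. The H3.1 genes summed to less in ethanol at 3 h than at 0 h, with means of 152 against 211 scaled CPM in shoots and 174 against 236 in roots.

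The H3 genes show how the replication-coupled and replacement forms differ. The 5 H3.1 genes have no intron and encode 1 identical protein, and the 3 H3.3 genes have 2 to 4 introns and also encode 1 protein. These 2 proteins differ at 4 of the 135 positions after the first methionine, at 31, 41, 87 and 90. The coding sequences of an H3.1 and an H3.3 gene are 74 to 80.3% identical, so the reads of the families can be told apart. Codons 84 to 93 of all 8 genes are printed to show this, with codons 87 and 90 in capitals. The sequences and coordinates of each whole gene are from RefSeq on the TAIR10.1 assembly.
HTR1 (H3.1, chr5:26119859-26120581, minus strand): ttccagagcAGCgccgtcGCAgcacttcag
HTR2 (H3.1, chr1:2971571-2972334, minus strand): ttccagagcAGTgccgtcGCCgctcttcag
HTR3 (H3.1, chr3:10129105-10129937, minus strand): tttcagagtAGTgcagtcGCAgctcttcaa
HTR9 (H3.1, chr5:3270172-3270957, minus strand): ttccagagcAGTgccgtcGCAgctcttcag
HTR13 (H3.1, chr5:3268847-3269594, minus strand): tttcagagcAGTgctgttGCTgctttacaa
HTR4 (H3.3, chr4:18555532-18557106, minus strand): ttccagagcCATgctgtcTTAgctctccag
HTR5 (H3.3, chr4:18557149-18558945, minus strand): ttccagagcCATgctgtgCTTgcactccag
HTR8 (H3.3, chr5:3472405-3473570, minus strand): tttcagagtCACgcggtgTTAgctcttcaa
All 5 H3.1 genes carry AGC or AGT at codon 87 and a GCN codon at 90, and all 3 H3.3 genes carry CAT or CAC at 87 and TTA or CTT at 90.

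Upstream sequence was searched on both strands for motifs known from plant histone promoters, in windows from 250 bases before to 50 bases after each annotated gene start. The octamer CGCGGATC was found in 10 of the 41 histone windows, 24.4%, against 40 of 27443 windows of protein-coding genes, 0.146%. It stood in 3 of 5 H3.1 windows and in none of 10 H2B windows. The hexamer ACGTCA was in 13 histone windows, 31.7%, against 9.19% of all windows, and 9 of these 13 belonged to H2B genes. The core AACGG of the mitosis-specific element bound by plant MYB3R factors was in 24 histone windows, 58.5%, against 24.7% of all windows, among them all 5 H3.1 and no H2A.Z window. The E2F-type motif TTTCCCGC was in none of the 41 windows and in 0.798% of all windows, and the related TTTGGCGC was in 2, 4.88%, against 0.434%. The 250 bases before the start of 6 genes that the results turn on are printed from RefSeq on TAIR10.1, with the octamer, its reverse complement or the hexamer in capitals. None of these windows overlaps another gene.
HTR1 (H3.1, chr5:26120582-26120831, minus strand): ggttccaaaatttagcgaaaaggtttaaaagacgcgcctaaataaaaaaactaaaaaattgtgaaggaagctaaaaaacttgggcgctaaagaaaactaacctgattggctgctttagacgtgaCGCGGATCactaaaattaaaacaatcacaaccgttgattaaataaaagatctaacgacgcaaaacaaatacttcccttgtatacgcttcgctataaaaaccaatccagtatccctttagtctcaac
AT5G59690 (H4, chr5:24051224-24051473, plus strand): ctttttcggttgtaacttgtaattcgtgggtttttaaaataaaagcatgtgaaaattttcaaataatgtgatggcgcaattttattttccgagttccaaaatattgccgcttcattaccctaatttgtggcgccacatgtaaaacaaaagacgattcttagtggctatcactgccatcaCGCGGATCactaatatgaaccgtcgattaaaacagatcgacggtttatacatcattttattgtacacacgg
HTA6 (H2A.W, chr5:24116221-24116470, minus strand): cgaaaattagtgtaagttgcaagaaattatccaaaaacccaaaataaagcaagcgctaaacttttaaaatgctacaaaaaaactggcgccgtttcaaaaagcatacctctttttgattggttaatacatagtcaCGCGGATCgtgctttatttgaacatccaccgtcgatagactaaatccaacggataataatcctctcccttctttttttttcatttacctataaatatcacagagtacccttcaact
HTA10 (H2A, chr1:18926561-18926810, plus strand): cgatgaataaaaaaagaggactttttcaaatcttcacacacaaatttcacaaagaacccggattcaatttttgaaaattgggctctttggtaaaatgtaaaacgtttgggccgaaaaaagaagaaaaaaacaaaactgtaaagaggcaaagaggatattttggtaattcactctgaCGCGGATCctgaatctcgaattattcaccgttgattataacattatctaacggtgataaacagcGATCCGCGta
HTA13 (H2A, chr3:7229140-7229389, plus strand): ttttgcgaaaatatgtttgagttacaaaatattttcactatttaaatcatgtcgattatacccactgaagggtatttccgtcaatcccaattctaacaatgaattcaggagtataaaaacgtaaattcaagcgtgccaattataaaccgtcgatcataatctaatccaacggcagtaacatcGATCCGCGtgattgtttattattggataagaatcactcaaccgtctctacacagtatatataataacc
HTB9 (H2B, chr3:16898014-16898263, minus strand): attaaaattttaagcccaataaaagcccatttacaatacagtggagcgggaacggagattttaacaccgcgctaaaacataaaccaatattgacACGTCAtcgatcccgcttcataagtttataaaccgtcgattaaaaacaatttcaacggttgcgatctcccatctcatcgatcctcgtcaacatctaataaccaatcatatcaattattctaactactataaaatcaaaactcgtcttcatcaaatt
The first base of the octamer lay 126 bases before the start in HTR1, 71 in AT5G59690 and 116 in HTA6. HTA10 held it at 74 and, on the other strand, at 10 bases, and HTA13 held it at 68 bases on the other strand. In HTB9 the hexamer lay 156 bases before the start.

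**Figure D1:**
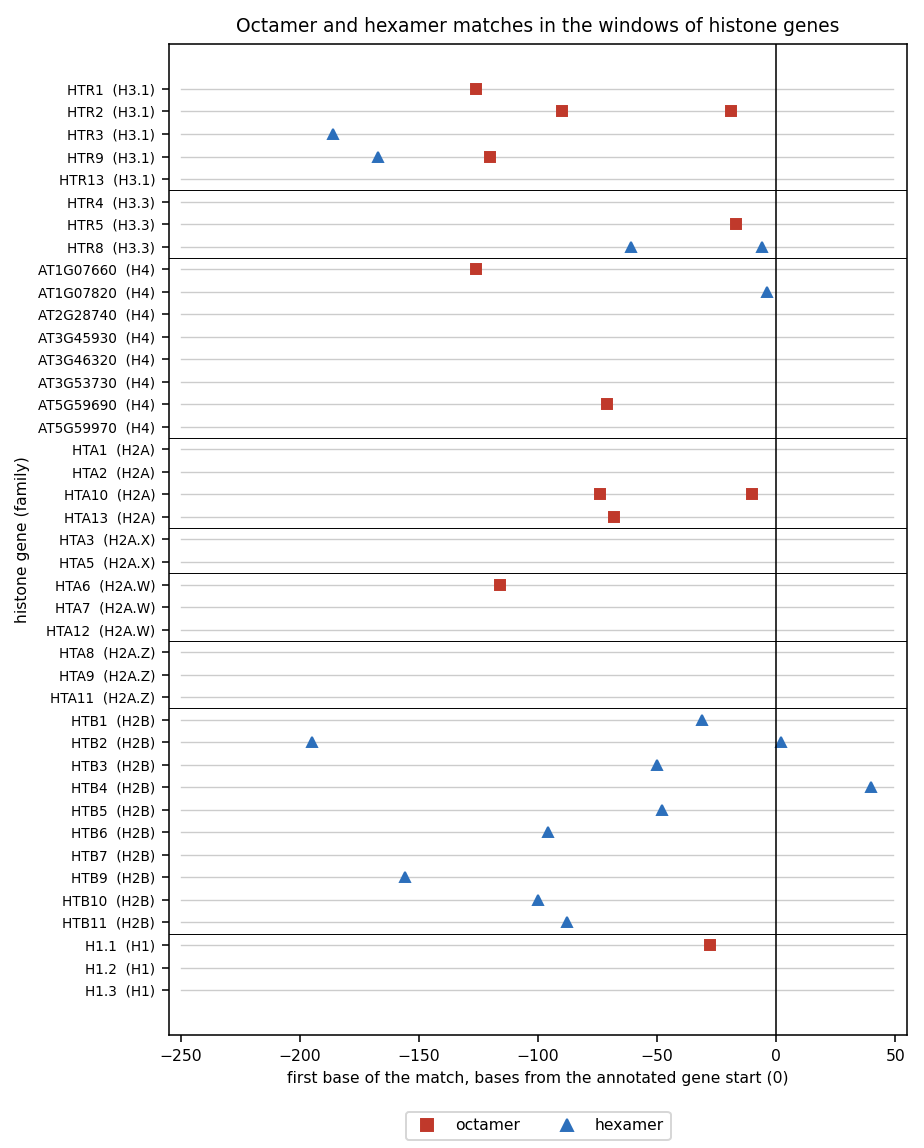
Positions of the octamer (squares) and the hexamer (triangles) in the windows of the 41 histone genes, as bases from the annotated gene start (x axis; the vertical line marks the start), with genes grouped by family on the y axis. Octamer matches fall in H3.1, H3.3, H4, H2A, H2A.W and H1 windows, and most hexamer matches fall in H2B windows.

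In untreated seedlings, levels per length were highest for the H3.3 genes. HTR4 averaged 341 CPM per kb in shoots and 231 in roots, HTR5 301 and 216, and HTR8 194 and 216 (n = 3 each). These were the first 3 of the 41 genes in both organs. The most abundant H4 gene, AT5G59690, followed in shoots with 170 CPM per kb and had 91.8 in roots, and HTB9 had 161 and 97.5. HTR1, the H3.1 gene with the most RNA, had 118 and 94.7 CPM per kb. Summed over genes, H3.3 reached 836 CPM per kb in shoots and 663 in roots, and H3.1 reached 357 and 267. The lowest members were the H2B genes HTB7, with 2.6 and 2.21 CPM per kb, and HTB10, with 1.03 and 0.605. HTB10 overlaps the H2A.W gene HTA12 by 522 bases on the other strand. It was below the minimum of 1 CPM in 3 libraries used for testing, so 40 members were tested.

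A locus is called higher or lower below where its adjusted p is under 0.05 in limma's moderated test, with Benjamini-Hochberg adjustment over all loci tested. Log2 changes are given with their SE, and levels with their SD. Between the untreated organs, 27 of 40 members were higher and 3 were lower in shoots than in roots, while over all 21096 loci tested 33.3% were higher and 44.8% lower. The members' median log2 difference was 0.40 and that of all loci -0.16, a shift that the scaling leaves in this comparison. All 5 H3.1 genes were higher in shoots, by 0.26 to 0.69 on the log2 scale, as were 6 of 8 H4 genes, 6 of 9 H2B genes and the H3.3 genes HTR4 (0.56) and HTR5 (0.48). AT5G59690 had 123, 141 and 116 scaled CPM in untreated shoots against 70.5, 66.7 and 68 in roots. The organs did not overlap, and the log2 difference was 0.85 ± 0.10 (SE; limma, adjusted p = 4.31e-11). HTA10, a canonical H2A gene, went the other way, with 63.4, 62.9 and 46.4 scaled CPM in shoots against 83.4, 84.9 and 85.6 in roots. Its log2 difference was -0.60 ± 0.11 (limma, adjusted p = 8.01e-07). HTA3, an H2A.X gene that overlaps opposite-strand genes by 259 and 240 bases, was also lower in shoots (-0.84 ± 0.12, limma adjusted p = 1.37e-08). The largest organ difference was that of H1.3, the linker histone known for induction by drought and low light, with 71.4, 65 and 59.1 scaled CPM in shoots and 14.6, 6.5 and 11.8 in roots. It amounted to 2.55 ± 0.25 on the log2 scale (limma, adjusted p = 5.23e-13).

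Histone genes moved in the solvent controls too, as most loci did. Across the 6 ethanol groups, 36 of 40 members differed between times in shoots, where 88.2% of all loci did, and 35 in roots, where 67% did (limma F test). The shoot count is near the share of all loci. The H3.1 genes summed to 211 scaled CPM in ethanol shoots at 0 h, 98.9 at 1 h, 152 at 3 h, 228 at 6 h, 198 at 12 h and 318 at 24 h (means, without libraries under 0.5 M reads). H4 had the same low point, with 426 at 0 h and 241 at 1 h. Ethanol at 0 h against untreated seedlings gave 1 member higher and 5 lower in shoots, against 9.28% and 13.1% of all loci, so the lower count is near that share. In roots this comparison gave 11 higher and 3 lower, against 14.8% and 11.3% of all loci. Without ethanol root replicate 2 or 3 at 0 h the root count was 1, so these calls need both of those libraries. Replicate 1 of that group is shallow, so leaving out either one keeps only 1 deep library. HTR1 had 58.6, 84.4 and 80.2 scaled CPM in ethanol roots at 0 h, the first from a shallow library, against 72.2, 66 and 67.2 in untreated roots.

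After citral, lower histone genes outnumbered higher ones in 9 of the 10 comparisons with ethanol. In 2 of these 9 the direction turned under other settings: roots at 3 h had 12 higher and 8 lower with limma-trend, and 6 higher and 3 lower without ethanol replicate 3, and shoots at 12 h had 3 higher and 2 lower without library weights, 4 of each with limma-trend, 1 higher and none lower without ethanol replicate 1 or 3, and 3 of each without citral replicate 3. Over all loci too, lower calls outnumbered higher ones in shoots at 3, 12 and 24 h and in roots at 3, 6 and 12 h. In shoots at 1 h the member counts were equal, 3 higher and 3 lower, beside 12.6% and 7.9% of all loci. The lower count there was near its share. At 3 h, 4 were higher and 14 lower in shoots (23.6% and 26.7% of all loci). At 6 h, 1 was higher and 21 lower (21.7% and 19.8%), with a median log2 change of -0.43 for the members and -0.01 for all loci. Shoots at 12 h had 3 higher and 8 lower (19% and 19%), the lower count being near its share. At 24 h they had 3 higher and 29 lower (16.2% and 17.2%), with medians of -0.68 and -0.06. Roots at 1 h had 4 members higher and 15 lower (22% and 21.1% of all loci), and at 3 h they had 9 higher and 14 lower (21.4% and 25.9%). The higher count at 3 h was near its share. At 6 h roots had 3 higher and 27 lower (22.9% and 25.7%), with medians of -0.68 and -0.04. At 12 h roots had 2 higher and 22 lower (17.9% and 18.1%), and at 24 h 18 members were called (38.6% of all loci), 16 of them lower (18.5%).

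At 6 and 24 h the shoot counts moved with the settings. Without weights for library quality, 6 members were called in shoots at 6 h and 12 at 24 h, whereas 28 were called in roots at 6 h. All 36 shoot libraries share 1 fit, and the shallow replicate 2 of ethanol shoots at 12 h counts in full there without weights. Its weight was 0.0233, while the lowest weight of a root library was 0.155. The part of this library in the shoot counts was not tested. With all libraries thinned to 1.58 M reads, 2 members were higher and 25 lower in roots at 6 h, and 17 were lower and none higher in shoots at 6 h. Under the authors' scaling, the median of all loci fell by 0.17 at 1 h, by 0.23 at 3 h and by 0.18 at 6 h in shoots. The share of higher loci among all called loci was then 35% in place of 61.4% at 1 h, 32.6% in place of 46.9% at 3 h and 33.5% in place of 52.3% at 6 h in shoots. In roots it was 38.7% in place of 51% at 1 h, 39.1% in place of 52.1% at 24 h and, for ethanol against untreated at 0 h, 44.9% in place of 56.7%.

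**Figure D2:**
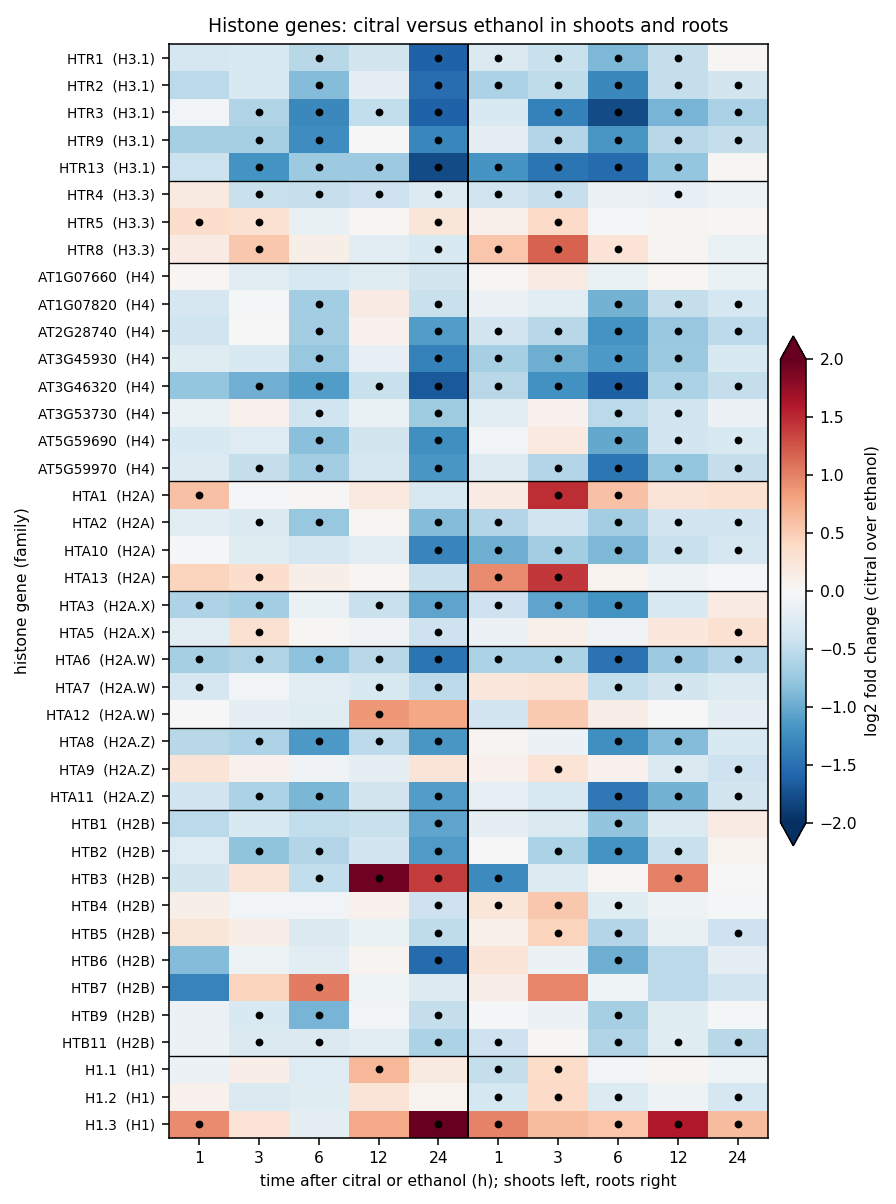
Log2 fold change, citral over ethanol, of the 40 tested histone genes (rows, by family) at 1, 3, 6, 12 and 24 h (columns), with shoots on the left and roots on the right; the colour scale is limited to -2 and 2, and dots mark changes with an adjusted p under 0.05. H3.1, H4 and HTA6 are mostly blue (lower), while HTR8, HTA1 and HTA13 are red in roots at 3 h.

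Of the 17 replication-coupled genes, 8, 10, 14, 14 and 10 were lower in roots at 1, 3, 6, 12 and 24 h, and 1, 2, 1, 0 and 0 were higher. Their median log2 change in roots was -0.29, -0.51, -1.02, -0.48 and -0.33 in the same order. In shoots 0, 6, 13, 3 and 14 were lower, with medians of -0.27, -0.29, -0.70, -0.19 and -1.22. The direction at 12 h in shoots depends on the settings, since the median there was 0.29 without library weights and 0.85 with limma-trend. Neither of these settings uses weights for library quality. The shallow replicate 2 of ethanol shoots at 12 h had a weight of 0.0233 in the main fit, and its part in these medians was not tested. Of the 6 replacement variants, 1, 1, 2, 4 and 2 were lower in roots and 0, 3, 3, 2 and 4 in shoots. Their medians were between -0.22 and 0.08 in roots and between -0.30 and 0.17 in shoots. Of all loci, 21.1, 25.9, 25.7, 18.1 and 18.5% were lower in roots at these times, and 7.9, 26.7, 19.8, 19 and 17.2% in shoots. The replication-coupled counts in shoots at 1 and 12 h did not exceed these shares. Neither did the replacement counts at 1 h in both organs and at 3 h in roots. The replacement counts mix H3.3 with H2A.Z, whose genes behaved differently and are given apart below. Fewer dividing cells in an organ and less histone RNA in each cell cannot be told apart in these whole-organ samples.

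All 5 H3.1 genes were lower in citral roots at 6 h. HTR1 (AT5G65360) had 44.8, 46.2 and 46.2 scaled CPM in citral roots against 81.8, 83.4 and 96.4 in ethanol roots. HTR2 (AT1G09200) had 31.3, 29.7 and 27 in citral roots against 63.7, 70.8 and 79 in ethanol roots. HTR3 (AT3G27360) had 6.62, 7.95 and 12.6 in citral roots against 31.8, 32.1 and 33.4 in ethanol roots. In each of these genes every citral library lay below every ethanol library of that time. HTR9 (AT5G10400) had 21.1, 21.8 and 23.7 in citral roots against 46.2, 50.2 and 56.3 in ethanol roots, and HTR13 (AT5G10390) had 5.11, 6.47 and 7.5 against 20.6, 18.7 and 19.9. The log2 changes at 6 h were -0.90 ± 0.10 for HTR1 (limma, adjusted p = 3.09e-09), -1.29 ± 0.14 for HTR2 (5.16e-10) and -1.79 ± 0.21 for HTR3 (2.6e-09). HTR3 overlaps a neighbouring gene on the same strand by 328 bases, so some of its reads may be shared.

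The lower H3.1 level in roots began at 1 h. Summed over the 5 genes, citral roots had 115 to 128 scaled CPM after 1 h, between 91.4 and 111 after 3 h, and between 109 and 117 after 6 h. The ethanol roots of at least 0.5 M reads, over all times, spanned 147 to 285. Citral roots at 1, 3 and 6 h thus lay below every one of these 16 ethanol libraries, whatever their time. At 1 h HTR1, HTR2 and HTR13 passed the test, and HTR13 changed most, with a log2 change of -1.18. At 3 h all 5 passed, but without ethanol root replicate 3 the change of HTR9 was 0.06 instead of -0.58. At 12 h citral roots averaged 149 ± 10.4 against 230 ± 26.9 in ethanol roots (SD, n = 3 each), and all 5 genes were lower, also against ethanol at 0 h, with log2 changes between -0.97 and -0.42. At 24 h the sums were 190 ± 15.5 against 244 ± 24.0, and HTR2, HTR3 and HTR9 were lower while HTR1 and HTR13 both had a change of 0.03. When set against ethanol at 0 h, HTR9 was the only H3.1 gene lower in roots at 24 h (-0.71, limma adjusted p = 0.00016).

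In shoots the H3.1 response had a different course. At 1 h the citral sums of 58.5 to 91.6 scaled CPM lay below all 16 ethanol shoot libraries, 95.2 to 343, but none of the 5 genes passed the test, with log2 changes between -0.66 and -0.06, though HTR2 and HTR9 had an unadjusted p under 0.05 in limma. HTR3, HTR9 and HTR13 were lower at 3 h, and all 5 genes were lower at 6 h. HTR1 at 6 h had 40.7, 41.2 and 53.6 in citral shoots against 57.9, 85.3 and 70.4 in ethanol shoots. These groups did not overlap, and the log2 change was -0.55 ± 0.17 (limma, adjusted p = 0.00908). At 24 h HTR1 had 36.6, 36.3 and 38.6 in citral shoots against 97.6, 118 and, in a shallow library, 163 in ethanol shoots. All 5 genes were lower at 24 h, with log2 changes between -1.79 and -1.30 and -1.61 ± 0.19 for HTR1 (limma, adjusted p = 3.27e-08). They were also lower than in ethanol at 0 h, with changes between -1.14 and -0.79. Ethanol shoots at 3 h, the nearest in clock genes, had H3.1 sums of 133 to 166, below the 171 to 235 at 0 h, and were not used in that comparison. The citral sums at 24 h, 101 to 139, nevertheless lay within the range of all ethanol shoots, which were as low as 95.2 at 1 h.

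**Figure D3:**
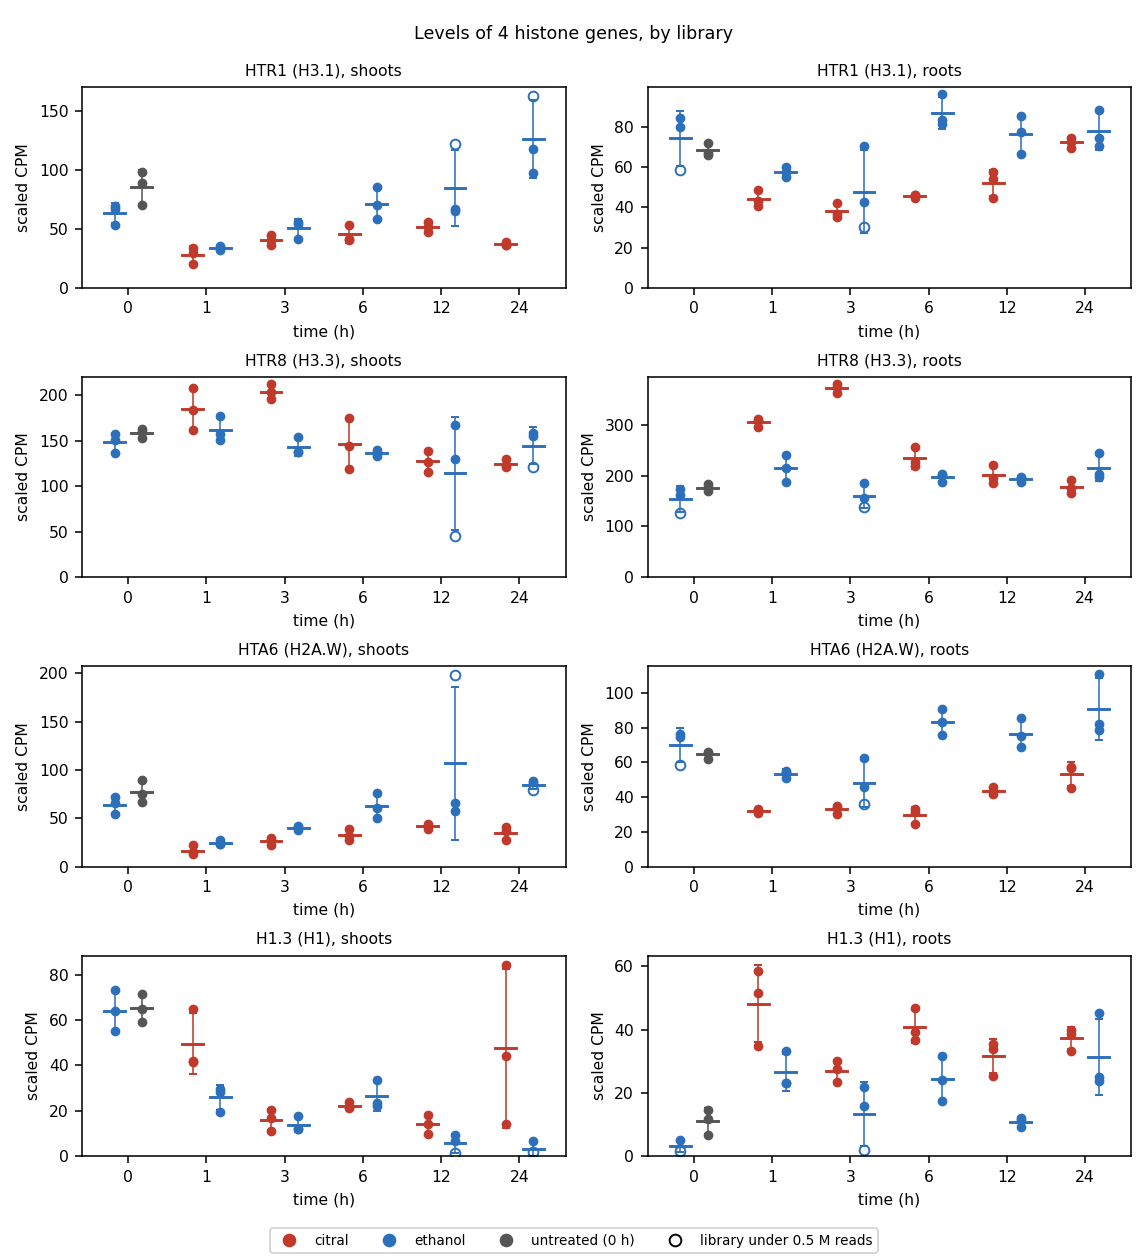
Scaled CPM per library (y axis, linear) of HTR1, HTR8, HTA6 and H1.3 over time in hours, with shoots on the left and roots on the right; points are libraries, hollow points are libraries under 0.5 M reads, and bars are the mean and SD of 3 libraries. HTR1 and HTA6 in citral roots stay below the ethanol roots at 6 h, HTR8 reaches 364 to 382 in citral roots at 3 h, and H1.3 in ethanol shoots is near 0 at 24 h.

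The H3.3 genes did not move as 1 family. HTR8 and HTR5 were higher at some times when H3.1 genes were lower, while HTR4 was lower at most times. HTR8 (AT5G10980) had 375, 382 and 364 scaled CPM in citral roots at 3 h against 138, 157 and 185 in ethanol roots, the first of which is a shallow library. At 1 h it had 312, 308 and 297 in citral roots against 241, 216 and 187 in ethanol roots. Both citral groups lay above all 16 ethanol root libraries, 157 to 245. The log2 changes were 0.56 ± 0.06 at 1 h (limma, adjusted p = 1.99e-09), 1.18 ± 0.09 at 3 h (1.2e-13) and 0.28 ± 0.07 at 6 h (0.000742). In shoots HTR8 rose at 3 h, with 212, 203 and 196 in citral shoots against 154, 137 and 138 in ethanol shoots, a change of 0.54 ± 0.10 (limma, adjusted p = 2.68e-05), and the citral libraries lay above the ethanol shoots of all times, 130 to 177. At 24 h it was lower in shoots, with a log2 change of -0.31.

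HTR5 (AT4G40040) was higher in shoots at 1 h, with 516, 447 and 549 scaled CPM in citral shoots against 405, 379 and 413 in ethanol shoots (0.35 ± 0.08, limma adjusted p = 0.00225). It was also higher at 3 h in both organs, but with quantile normalization the change in roots at 3 h was -0.01 in place of 0.38. HTR4 (AT4G40030) lies 42 bases from HTR5 on the same strand and went the other way. At 6 h it had 206, 203 and 222 in citral shoots against 300, 299 and 300 in ethanol shoots, a change of -0.46 ± 0.10 (limma, adjusted p = 0.000286). It was lower in shoots at 3, 6, 12 and 24 h and in roots at 1, 3 and 12 h. Against ethanol at 0 h the root change at 12 h was 0.16, and that of HTR5 in shoots at 24 h was -0.22, against 0.24 with ethanol at 24 h, so these directions depend on the control group. The sum of the 3 H3.3 genes was 796 ± 54.5 scaled CPM in citral roots at 6 h against 784 ± 16.3 in ethanol roots, and 628 ± 46.2 in citral shoots against 745 ± 15.7 in ethanol shoots (SD, n = 3 each). The citral shoots at 6 h lay below all 16 ethanol shoots, 727 to 910, and the citral roots lay within the range of the ethanol roots.

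The share of H3 reads that came from H3.1 genes puts both families on 1 scale that does not depend on library size. It falls when H3.1 falls and also when H3.3 rises. H3.3 summed to 961 scaled CPM in citral roots at 3 h against 746 in ethanol roots (n = 2). In shoots at 1 h it summed to 948 under citral against 788, and at 6 h to 628 against 745. In citral roots this share was 11.8 ± 0.769% at 1 h, 9.73 ± 0.940% at 3 h, 12.4 ± 0.971% at 6 h, 16.2 ± 1.83% at 12 h and 21.1 ± 1.56% at 24 h (SD, n = 3). In ethanol roots it was 16.4 ± 0.463%, 16.0 ± 5.16%, 25.0 ± 1.39%, 22.4 ± 1.86% and 22.8 ± 1.21% at these times, where the 3 h value includes a shallow library at 10.5% beside 16.8% and 20.8%. Citral roots at 1, 3 and 6 h were below every ethanol root library of at least 0.5 M reads, 16.0 to 27.0%, and at 24 h the groups overlapped. In citral shoots the share was 7.54 ± 2.10%, 11.7 ± 1.13%, 15.7 ± 2.67%, 18.8 ± 2.19% and 13.6 ± 1.83% at 1, 3, 6, 12 and 24 h. In ethanol shoots it was 11.2 ± 0.238%, 16.3 ± 1.08%, 23.4 ± 2.94%, 31 ± 19.8% and 29.5 ± 2.66%, where the 12 h value includes a shallow library at 53.9%. Untreated shoots had 23.0 ± 2.10% and untreated roots 22.6 ± 0.302%. The share is a sum over chosen genes and was not tested.

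**Figure D4:**
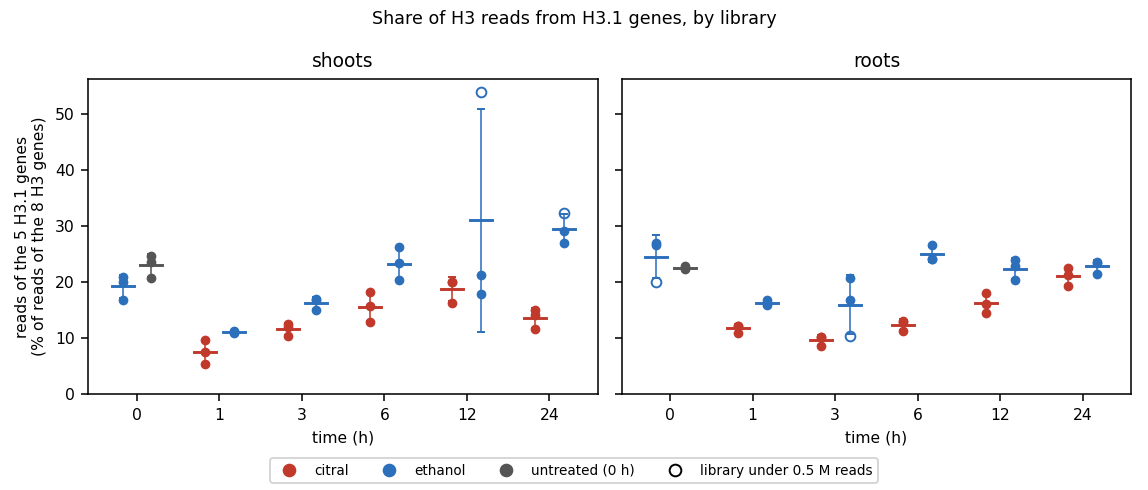
Share of H3 reads from the 5 H3.1 genes, in percent of the reads of all 8 H3 genes (y axis), by library over time in hours, in shoots (left) and roots (right); bars are the mean and SD of 3 libraries, and hollow points are libraries under 0.5 M reads. Citral roots lie between 8.65 and 13.1% from 1 to 6 h, and meet the ethanol roots at 24 h.

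H4 is the partner of H3 in the nucleosome, and its 8 genes encode 1 protein. In roots 3, 4, 7, 7 and 5 of the H4 genes were lower at 1, 3, 6, 12 and 24 h, in shoots 0, 2, 7, 1 and 7, and none was higher. Of all loci, 21.1, 25.9, 25.7, 18.1 and 18.5% were lower in roots at these times, and 7.9, 26.7, 19.8, 19 and 17.2% in shoots. The H4 counts in shoots at 1, 3 and 12 h thus did not exceed the share of all loci. AT5G59690 had 35.5, 42.1 and 40.5 scaled CPM in citral roots at 6 h against 76.5, 79.6 and 86.1 in ethanol roots. All citral libraries lay below the range of all ethanol roots, 48.2 to 100, and the change was -1.02 ± 0.11 (limma, adjusted p = 4.04e-10). AT3G46320 had 11.4, 8.53 and 11.1 in citral roots against 34.3, 31.1 and 37.2 in ethanol roots, a change of -1.64 ± 0.16 (limma, adjusted p = 9.23e-11). Between 19.4 and 27.9% of the 50-base stretches of AT1G07660, AT1G07820, AT3G45930 and AT3G46320 occur in another histone gene, so their counts are less certain than those of the other H4 genes. Summed, H4 was 203 ± 5.5 in citral roots at 6 h against 401 ± 20.6 in ethanol roots, and 221 ± 13.7 in citral shoots at 24 h (n = 3) against 420 ± 25.0 in ethanol shoots (n = 2). At 24 h AT5G59690 had 56.1, 48.2 and 53.4 in citral shoots against 109, 122 and, in the shallow library, 145 in ethanol shoots. Its change was -1.22 ± 0.18 (limma, adjusted p = 1.6e-06), and against ethanol at 0 h it was -1.19. AT1G07660 passed the test in none of the 10 comparisons in either direction (limma; its unadjusted p was under 0.05 in shoots at 6 and 24 h), and its window holds the octamer, as does that of AT5G59690.

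The canonical H2A genes split. HTA10 (AT1G51060) had 42.8, 48.1 and 45.4 scaled CPM in citral roots at 1 h against 106, 94.3 and 75.8 in ethanol roots. It changed by -0.98 ± 0.11 (limma, adjusted p = 2.49e-09) and lay below all 16 ethanol roots, 70.4 to 106, at 1, 3 and 6 h. HTA13 (AT3G20670) had 49.6, 53.4 and 47.5 in citral roots at 1 h against 29.1, 27 and 26.3 in ethanol roots, and 56.5, 69.7 and 55.1 at 3 h against 18 (shallow library), 22.5 and 23.1. It lay above all 16 ethanol roots, 22.5 to 41.8, at both times, and its changes were 0.94 ± 0.10 at 1 h (limma, adjusted p = 4.69e-10) and 1.42 ± 0.16 at 3 h (1.76e-09). HTA1 (AT5G54640) had 40.6, 47.4 and 40.7 in citral roots at 3 h against 18 (shallow library), 12.7 and 18.5 in ethanol roots, a change of 1.47 ± 0.19 (limma, adjusted p = 4.38e-08), also above every ethanol root, 12.7 to 28.9. HTA2 was lower in roots at 1, 6, 12 and 24 h. The octamer of the windows printed above is found in HTA10 and in HTA13, which moved in opposite directions. HTA13 overlaps an opposite-strand gene by 79 bases. In shoots at 24 h HTA10 had 40.3, 29.1 and 36.4 in citral shoots against 73.6, 94.3 and 69.2 (shallow library) in ethanol shoots, a change of -1.32 ± 0.18 (limma, adjusted p = 7.07e-07), and against ethanol at 0 h the change was -0.49.

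The H2A variants did not move as a block. HTA6 (AT5G59870), an H2A.W gene, was lower at all 5 times in both organs. It had 24.7, 33 and 31.5 scaled CPM in citral roots at 6 h against 75.8, 82.9 and 90.6 in ethanol roots (-1.48 ± 0.11, limma adjusted p = 7.05e-14), and it lay below all ethanol roots at 1, 3 and 6 h. Against ethanol at 0 h it was also lower in shoots and roots at 12 and 24 h, with changes between -1.02 and -0.51. The other H2A.W genes changed at fewer times, and HTA12 was higher in shoots at 12 h by 0.86. Of the H2A.Z genes, HTA11 (AT3G54560) had 10.8, 11.5 and 13.2 in citral roots at 6 h against 36.8, 32.3 and 33 in ethanol roots (-1.43 ± 0.15, limma adjusted p = 4.04e-10), and HTA8 (AT2G38810) changed by -1.23 ± 0.20 (2.27e-06). HTA9 (AT1G52740), the most abundant H2A.Z gene, had 120, 103 and 99.6 in citral roots against 101, 100 and 101 in ethanol roots at that time, and the libraries overlapped. HTA9 was lower in roots at 12 and 24 h, where it lay below all ethanol roots. The H2A.X gene HTA3 was lower in roots at 1, 3 and 6 h and in shoots at 1, 3, 12 and 24 h, with shoot changes between -1.05 and -0.44, and HTA5 was higher in shoots at 3 h (0.30) and in roots at 24 h (0.30) and lower in shoots at 24 h (-0.41). Canonical genes gave 50.6 ± 1.58% of the summed canonical H2A and H2A.Z reads in citral roots at 6 h, and 54.0 ± 2.03% in ethanol roots.

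Of the 9 H2B genes tested, 7 were lower in roots at 6 h (25.7% of all loci) and 7 in shoots at 24 h (17.2%). HTB2 changed by -1.19 ± 0.14 in roots at 6 h (limma, adjusted p = 3.38e-09), and its 3 citral libraries, 27.4 to 30.4 scaled CPM, lay below all ethanol roots, 33.5 to 78.6. HTB9 (AT3G45980) had 40.4, 58.4 and 47.1 in citral shoots at 6 h against 88.6, 94.8 and 93.4 in ethanol shoots (-0.93 ± 0.14, limma adjusted p = 2.13e-06), below all ethanol shoots, 70.2 to 107. HTB4 (AT5G59910), the H2B gene with the most reads, was higher in roots at 3 h, with 171, 162 and 145 in citral roots against 102 (shallow library), 104 and 120 in ethanol roots (0.54 ± 0.12, limma adjusted p = 0.000229). HTB3 (AT2G28720) stood apart from its family. At 12 h it had 38.2, 34.2 and 35.2 in citral shoots against 9.5, 6.1 (shallow library) and 8.98 in ethanol shoots (1.94 ± 0.17, limma adjusted p = 1.16e-10). In ethanol shoots at 0 h it had 54.7, 43.3 and 45.4, above the citral shoots at 12 h, so its direction depends on the control group. In roots at 1 h it was lower, with a log2 change of -1.27.

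The linker histone genes went opposite ways in roots at 1 h, where H1.1 and H1.2 were lower and H1.3 was higher. H1.1 (AT1G06760), which overlaps an opposite-strand gene by 484 bases, was higher in shoots at 12 h, with 214, 162 and 168 scaled CPM in citral shoots against 127, 54.9 (shallow library) and 98.5 in ethanol shoots (0.66 ± 0.14, limma adjusted p = 0.000394). That change was 0.12 against ethanol at 0 h (adjusted p = 0.454). In roots H1.1 and H1.2 had log2 changes of -0.48 and -0.35 at 1 h and were higher at 3 h (0.37 and 0.39). H1.3 (AT2G18050) had 51.5, 34.7 and 58.5 in citral roots at 1 h against 23.1, 23 and 33.2 in ethanol roots, which did not overlap (0.99 ± 0.20, limma adjusted p = 0.000199). At 12 h it had 25.4, 34 and 35.4 in citral roots against 11.3, 11.9 and 9.13 in ethanol roots (1.6 ± 0.25, limma adjusted p = 6.62e-06). At 24 h in shoots it had 44.1, 84.3 and 14.3 under citral against 6.57, 1.07 and 1.57 under ethanol, the last value being 0.5 read in a shallow library. The change was 3.61 ± 0.75 (limma, adjusted p = 0.000492), but against ethanol shoots at 0 h, with 73.4, 55.1 and 64.2, it was -0.30 (adjusted p = 0.48).

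The citral response of 33 of 40 members differed between shoots and roots over the 5 times, against 63.6% of all loci (limma F test of the interactions). The adjusted p was 7.61e-09 for HTB3, whose change in shoots minus that in roots was 0.93, 0.59, -0.53, 0.97 and 1.56 at 1, 3, 6, 12 and 24 h. For HTR1 it was 1.74e-07, and its change in shoots minus that in roots was -1.62 at 24 h and between -0.01 and 0.33 at the other times, and 24 h is a time at which the clock genes of the groups differ. Without replicate 1 the count was 12, and without replicate 2 it was 10.

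Genes that handle histones or run the cell cycle were read beside the members, from lists of pathway genes. Of 6 mitosis genes, all 6 were lower in roots at 3 and 6 h (25.9% and 25.7% of all loci) and in shoots at 6 h (19.8%). Their median log2 change at 6 h was -1.69 in roots and -1.19 in shoots. Among them were CDC20.1, an activator of the anaphase-promoting complex (-2.88 in roots at 6 h), and KNOLLE, the syntaxin of the cell plate (-2.33). In roots at 24 h, 3 were higher and none was lower, where 38.6% of all loci were called in either direction. Of 12 S phase genes, 8 were lower and none higher in roots at 6 h (25.7% and 22.9% of all loci), among them PCNA2, the replication clamp (-0.91), and RNR1, a subunit of ribonucleotide reductase (-0.58). In shoots at 6 h, 4 of these 12 were higher and none lower (21.7% and 19.8% of all loci), at the time when 13 replication-coupled histone genes were lower. At 24 h in shoots 8 were lower (17.2% of all loci), with TSO2, the small subunit of ribonucleotide reductase, at -1.78. Of the 6 mitosis genes, only 1 was lower in shoots at 24 h, near that share, and none was higher. In shoots at 12 h none of these 6 was called. Of 26 chaperone and variant exchange genes, 3 were higher and 8 lower in roots at 6 h, where 22.9% and 25.7% of all loci were, so the lower count is near the background. In shoots at 6 h, 5 were higher and 1 lower (21.7% and 19.8% of all loci), and the higher count is near the background. In shoots at 24 h, 2 were higher and 13 lower (16.2% and 17.2% of all loci). FAS1, a subunit of the CAF-1 complex that delivers H3.1, was lower in roots at 6 h (-0.87), and HIRA, which delivers H3.3, was at -0.00.

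Cell type markers moved with some of these changes. The 4 photosynthesis markers were all lower in citral shoots at 1, 3 and 6 h (7.9, 26.7 and 19.8% of all loci). At 6 h their sum was 4850 ± 302 scaled CPM against 15200 ± 820 in ethanol shoots. The 4 root markers were all lower in citral roots at 1 and 3 h (21.1 and 25.9% of all loci). At 6, 12 and 24 h, 2, 3 and 3 of them were lower (25.7, 18.1 and 18.5%). Shoot meristem markers summed to 36.4 ± 0.53 in citral shoots at 6 h against 52.2 ± 3.46 in ethanol shoots, with 2 of 4 lower (19.8% of all loci). Their sum did not mark the shoot, with 53.8 ± 5.69 in untreated shoots and 81.4 ± 7.72 in untreated roots. In citral roots at 1 h the 3 tested genes of this set were all higher (22% of all loci). Root meristem markers summed to 70.1 ± 3.96 in citral roots at 6 h against 82.6 ± 8.75 in ethanol roots, and none of the 4 passed the test in limma, where SCR had an unadjusted p under 0.05. The part of these cell types in the histone results was not tested.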

How the data were processed

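The RNA-seq values of 72 libraries in 1 table were analysed. Per the labels' protocols, RNA was made into libraries with Illumina TruSeq kits, and per the submitters' processing notes the genome build was TAIR10; no aligner, counter or strand setting is stated in what was used here. The deposited values are a score per locus: per the file's name and its values, the authors' TMM-scaled reads (trimmed mean of M-values). They are whole numbers of at least 1, so a value of 1 can stand for 0 reads or for few reads. In each library 100.0% of values up to 150 were multiples of 1 factor, rounded to whole numbers. The factor was between 0.6656 and 1.3109 (1 in 5 libraries). Where it is 1 or lower, every whole number is such a rounded multiple, so the 100.0% says nothing about the factor there. Dividing the values by the library's factor gave reads, and values of 1 were set to 0.5 read. Because the deposited unit is not a raw count, limma was used.

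Reads were rescaled with own TMM factors (trimming 30% of the log ratios and 5% of the abundances, over loci of at least 10 CPM). Loci with at least 1 CPM in at least 3 libraries were tested, 19545 in shoots, 20167 in roots and 21096 over both organs. The test was limma voom 3.58.1 with library quality weights and a robust prior (R 4.3.3), in 1 fit per organ and 1 fit of both organs. Benjamini-Hochberg adjustment ran over all loci tested in each of the 13 comparisons of 2 groups, and the threshold was 0.05. The procedure was tested on simulated data. Replicates of a group differed by more than sampling noise in all 72 pairs (lowest chi-square per degree of freedom 1.26), and none was identical. Replicates are numbered in accession order. At 1 CPM the shallowest citral library holds 1.58 reads.

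Described in full were the H3.1 and H3.3 genes, H1.3, the most abundant member of each other family, and members called against the direction of their family. The members and gene lists were chosen with earlier results of these data known. The clock genes and the comparison with ethanol at 0 h were chosen after seeing the data. Sequences and gene models are from RefSeq, TAIR10.1, read by locus; 21979 of the 22122 loci matched. Tables used Python 3.11.15 with pandas 2.3.3 and numpy 2.4.6, sequences Biopython 1.88, and figures matplotlib 3.10.9. Alternatives covered the scaling, the weights, the filter, the pseudocount, thinned reads, the groups fitted and leaving out single libraries.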

Additional observations from a re-analysis of the deposited data

Results flagged for a closer look

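The citral response differed between shoots and roots, by limma's F test of the organ by treatment interactions over 5 times, in 33 of the 40 members tested. Over all loci tested, 63.6% did so. Among the H3.1 genes the adjusted p was 1.74e-07 for HTR1, 6.79e-05 for HTR13, 0.000755 for HTR2, 0.00308 for HTR9 and 0.021 for HTR3. Among the H3.3 genes it was 4.28e-06 for HTR4, 3.93e-05 for HTR8 and 0.0222 for HTR5. The H4 gene AT5G59690 had 0.000653. Of the H2A genes and variants, HTA10 had 4.15e-07, HTA6 0.000944, HTA9 0.00159 and HTA5 0.0146. The H2B genes HTB3 and HTB4 had 7.61e-09 and 0.00381, and of the linker histones H1.3 had 0.002 and H1.1 0.00667. For HTR4 the shoot minus root difference of the citral response was 0.62 at 1 h and -0.36 at 6 h. For HTR8 it was -0.66 at 3 h, when HTR8 was higher under citral in both organs. At 3, 12 and 24 h the citral groups were nearest in clock genes to an ethanol group of another time. Hour of the day and treatment cannot be told apart there, and their part in these differences was not tested.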

How the results depend on the processing

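No paired analysis was possible because the labels give no replicate numbers. In roots at 6 h the number of members called was between 24 and 30 under every setting run, those that leave out a library included, and it moved little without the 4 libraries under 0.5 M reads or with the compared groups alone. Without library weights the counts were 1, 4, 6, 5 (3 higher, 2 lower) and 12 in shoots at 1, 3, 6, 12 and 24 h, 0 for ethanol against untreated shoots and 6 for roots, 18 between organs and 12 for the interaction. With limma-trend (pseudocount 0.5 CPM) they were 0, 1, 2 and 8 in shoots at 1, 3, 6 and 24 h, 16 for the ethanol time course of shoots, 12, 20 (12 higher, 8 lower), 13 and 11 in roots at 1, 3, 12 and 24 h, 0 and 3 (1 higher, 2 lower) for ethanol against untreated shoots and roots, 8 between organs and 6 for the interaction. Under the authors' scaling they were 15 and 20 in shoots at 1 and 12 h, and 9 for ethanol against untreated roots. With no filter shoots at 1 h had 10. With thinned reads they were 2, 7 and 6 in shoots at 1, 3 and 12 h, 12 and 10 in roots at 1 and 24 h, and 0 and 3 for ethanol against untreated shoots and roots. Against ethanol at 0 h, chosen after seeing the data, shoots at 12 h had 17.

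Leaving out 1 library in turn gave 0 to 5, 12 to 18, 14 to 23, 1 to 13 and 18 to 33 calls in shoots at 1, 3, 6, 12 and 24 h. In roots it gave 13 to 17, 9 to 22, 27 to 30, 17 to 25 and 10 to 18. The ethanol time course gave 35 to 38 in shoots and 15 to 36 in roots, ethanol against untreated 1 to 9 in shoots and 1 to 14 in roots, the organs 29 to 32 and the interaction 10 to 24. Libraries that moved a count by over 1.5 times were, in shoots, ethanol 1 h replicate 1 (to 1), citral 1 h replicates 1 (2) and 3 (0), citral 6 h replicate 1 (14), ethanol 12 h replicates 1 and 3 (1 each), citral 12 h replicate 3 (6), ethanol 24 h replicate 1 (18), untreated replicates 1 (3) and 2 (1), and ethanol 0 h replicates 2 (1) and 3 (3). In roots they were ethanol 3 h replicate 3 (9, 6 higher and 3 lower), citral 24 h replicates 1 (11) and 2 (10), untreated replicates 2 (6) and 3 (9), and ethanol 0 h replicates 2 and 3 (1 each; 15 and 17 in the time course). For the 0 calls in shoots at 1 h, the cause was not tested.

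Of the values of single genes, 12 reversed under a setting and 1 on leaving out a library. HTR13 in shoots at 12 h and HTR9 in roots at 3 h were 0.37 and 0.59 with limma-trend. HTR5 in roots was -0.22 at 1 h and -0.01 at 3 h with quantile normalization, and HTR9 in roots at 3 h ranged from -0.71 to 0.06 on leaving out 1 library, with 0.06 without ethanol replicate 3. Against ethanol at 0 h, HTR5 and H1.3 in shoots at 12 h were -0.36 and -2.26, and HTR5, H1.3, HTA9 and HTB4 in shoots at 24 h were -0.22, -0.30, -0.41 and 0.23. HTR4 in roots at 12 h was 0.16 and H1.1 in roots at 24 h 0.40. The cause was not tested. Depth limits low members most, and it moved with treatment.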
